A study of Mus musculus with 40 samples.

Results

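The genes described are 30 members of the cholesterol and fatty acid synthesis pathways and of their control, chosen by name and found among the 47643 Ensembl genes counted in the brain of colonized mice. They comprise 7 genes of the mevalonate arm, 11 of the sterol arm, 5 that control sterol regulatory element binding proteins (SREBPs), 2 of sterol transport and turnover and 5 of fatty acid synthesis. The brain data were 40 RNA-seq libraries, 20 from hippocampus and 20 from frontal cortex. Recipients were wild-type Swiss Webster mice raised germ-free, described as female, 6 to 8 weeks of age and fed a standard control diet. Each cohort received by fecal microbiota transfer the stool that 1 of 10 donors, all children with refractory epilepsy, gave before starting the clinical ketogenic diet (pre-KD) or while following it (post-KD), so either region had 10 libraries per condition. Tissue was taken on day 4. Every library pooled 6 mice, which means that the spread between mice of a cohort is not seen, the libraries of a group differ in their donor, and the recipients themselves never ate the ketogenic diet.

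Cholesterol in the brain is made locally, because the blood-brain barrier keeps out circulating lipoprotein cholesterol, and most of it lies in myelin. The mevalonate arm builds isoprenoid units from acetyl-CoA, the sterol arm joins them to squalene, closes the ring and trims it to cholesterol, and neurons clear cholesterol by 24-hydroxylation. When sterols are low, SCAP carries SREBP out of the endoplasmic reticulum for cleavage, and when sterols are high INSIG proteins hold it there, so that SREBP-2 targets of the sterol pathway and SREBP-1 targets of fatty acid synthesis can be switched on together.

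Promoters from RefSeq (GRCm38.p6), each 300 bases from 250 before to 50 after the annotated start, were matched by symbol for 24 of the 30 genes. *Fdps*, *Fdft1*, *Sqle*, *Scd1*, *Scd2* and *Stard4* had none and were not searched. A sterol regulatory element, searched on both strands as an exact match to TCACNCCAC, was found in 1 of the 24, *Hmgcs1*, and in 1.44% of 27025 genes with a promoter. Variants of the element and sequence outside the window were not searched. The CCAAT box, the NF-Y motif, was found in 20 of the 24, or 83.3%, against 41.1% of those 27025 genes and 42.2% of the 12530 of them that were tested for expression. The promoter of *Hmgcs1* is shown because it held both motifs and the gene was the most abundant of the sterol pathway, and that of *Cyp51* because its difference in the hippocampus is described further on. The *Hmgcs1* window is chr13:119690101-119690400 on the plus strand and the *Cyp51* window chr5:4104648-4104947 on the minus strand, both written 5′ to 3′ along the gene, and capitals mark the matches to TCACNCCAC and to CCAAT, which reads ATTGG where it lies on the other strand.
Hmgcs1: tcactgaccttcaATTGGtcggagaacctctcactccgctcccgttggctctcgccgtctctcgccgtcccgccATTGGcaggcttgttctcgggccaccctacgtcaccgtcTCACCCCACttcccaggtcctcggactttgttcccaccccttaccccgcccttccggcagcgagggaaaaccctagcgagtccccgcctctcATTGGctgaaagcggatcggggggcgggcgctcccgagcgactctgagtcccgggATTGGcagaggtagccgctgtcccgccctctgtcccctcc
Cyp51: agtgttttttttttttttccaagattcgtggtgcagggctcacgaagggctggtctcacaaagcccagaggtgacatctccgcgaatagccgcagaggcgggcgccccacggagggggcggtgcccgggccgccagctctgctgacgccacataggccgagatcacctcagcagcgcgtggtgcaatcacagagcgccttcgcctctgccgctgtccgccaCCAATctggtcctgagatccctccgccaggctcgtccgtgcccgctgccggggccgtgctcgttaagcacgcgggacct
*Hmgcs1* held 4 matches to CCAAT and *Cyp51* 1, and a match to such letters is a description of the window and not a measured binding site.

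Libraries held between 1140756 and 2095352 counts, and 1 gene, *Gm42418*, took 8.63% to 18.02% of them. In 8 libraries, those of the recipients of donors 9 and 10 in both conditions and regions, *Xist*, which is transcribed from the inactive X chromosome, lay between 3.40 and 27.2 CPM (read counts scaled to a common library size), against 450 to 729 CPM in the other 32, and *Ddx3y* of the Y chromosome between 34.6 and 82.5 CPM against at most 15.8 CPM, so these pools go against the description of the mice as female. They were balanced over the conditions, and where leaving them out moved a member across an unadjusted p of 0.05 the values without them are given. Hippocampal and striatal markers separated the regions: the summed level of 8 hippocampal markers was 173 to 441 CPM in hippocampal and 63.6 to 169 CPM in frontal cortical libraries, whereas 7 striatal markers summed to 49.3 to 287 CPM in the hippocampus and 447 to 1017 CPM in the frontal cortex. Cortical markers, 8 in number, overlapped, with sums of 199 to 538 CPM in hippocampal and 308 to 625.03 CPM in frontal cortical libraries, 3 of them lower and 1 higher in the hippocampus at an adjusted p of 0.05 in edgeR. All 12 oligodendrocyte markers were detected in every group, with sums between 2016 and 4032 CPM. CPM are normalized by the trimmed mean of M values (TMM) here and below, and in bulk tissue fewer cells of a type cannot be told apart from less RNA per cell.

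Transcripts of the pathway were present at very unequal levels. *Scd2*, a stearoyl-CoA desaturase that puts the first double bond into saturated fatty acids, was the highest at 363 CPM on average over the 40 libraries, followed by *Hmgcs1*, the cytosolic HMG-CoA synthase that commits acetyl units to the mevalonate arm, at 257 CPM. *Cyp46a1*, the neuronal cholesterol 24-hydroxylase, averaged 114 CPM, *Fasn*, the fatty acid synthase, 102 CPM, and *Msmo1*, which takes part in removing the C-4 methyl groups of the sterol ring, 81.9 CPM. Per kilobase of annotated exon the order at the top was *Scd2* at 66.5, *Hmgcs1* at 56.0 and *Cyp46a1* at 34.7 CPM, then *Pmvk*, the phosphomevalonate kinase, at 14.8 and *Scd1*, another stearoyl-CoA desaturase, at 14.4 CPM. *Scd2* thus stood above *Scd1* both per library and per length, and *Srebf2*, which encodes SREBP-2, at 6.83 CPM per kilobase above *Srebf1*, which encodes SREBP-1, at 1.25 CPM per kilobase. Per-length levels assume reads spread over whole transcripts, as the labelled TruSeq kit gives. A 3' kit, listed among the study's reagents, would not meet this assumption, so the per-length order is conditional on the label.

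At the low end, *Idi1*, the isopentenyl diphosphate isomerase, averaged 0.567 CPM over the 40 libraries and had 0 counts in 29 of them. *Tm7sf2*, a sterol C14 reductase, averaged 5.69 CPM and *Srebf1* 7.05 CPM. In all, 19 of the 30 genes had at least 1 library with no count, and 4 averaged fewer than 20 counts per library. Zeros were spread over 13 members in pre-KD and 12 in post-KD hippocampus and over 6 and 5 in the frontal cortex. *Sqle*, the squalene epoxidase, at 21.6 CPM and *Dhcr7*, the last reductase of one branch, at 16.7 CPM, were therefore read from averages of 26.6 to 34.4 counts per library.

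Each library of a group came from another donor and other mice, and the source of the spread beyond counting error was not tested. Among members with at least 10 counts summed over a group, the coefficient of variation exceeded that of counting in 29 of 29 or 30 of 30 of them in every group, with a median ratio of 4.03 in pre-KD and 3.56 in post-KD hippocampus and of 3.22 and 3.17 in the frontal cortex. Among genes averaging at least 10 counts per library, the medians in the same order were 4.30, 3.56, 3.23 and 3.203 for the members and 3.92, 3.93, 3.19 and 3.27 for all genes. *Hmgcs1* varied least, by 23.2% and 15.4% in the hippocampus and by 10.6% in pre-KD frontal cortex, and *Scd2* varied least in post-KD frontal cortex, by 11.7%. The highest values were those of *Idi1*, with few counts, at 172% in pre-KD hippocampus and 142% in post-KD frontal cortex. In the other groups *Tm7sf2* was highest, at 107% in post-KD hippocampus and 104% in pre-KD frontal cortex. The plot of spread against depth gives the value of each member.

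**Figure D1:**
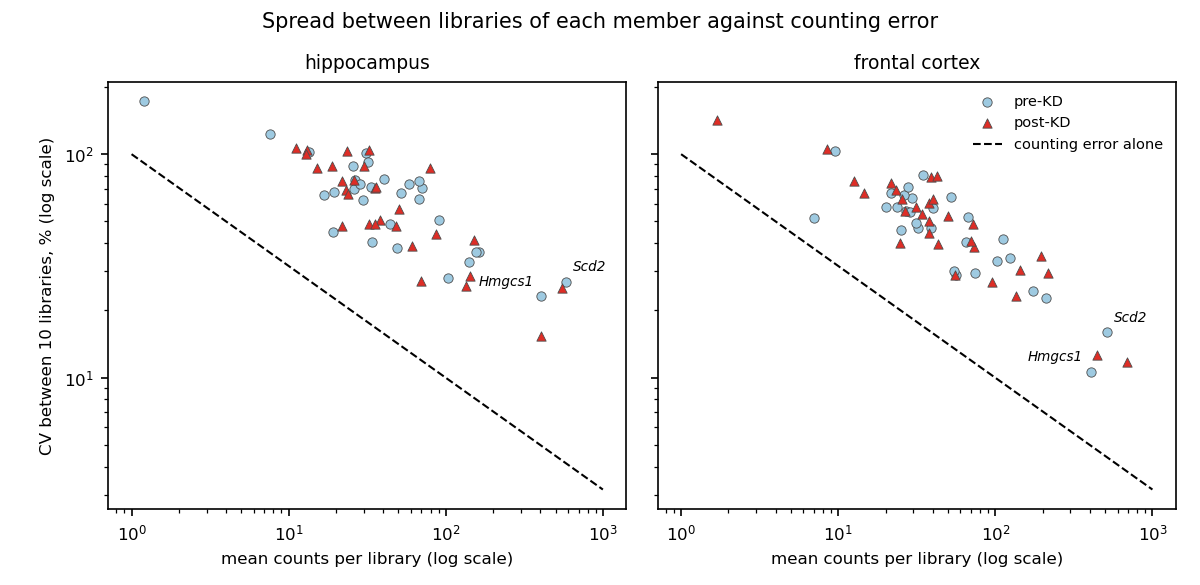
Coefficient of variation between the 10 libraries of a group, in percent on a log scale, against mean counts per library on a log scale, for each member with at least 10 counts summed over the group, in hippocampus (left) and frontal cortex (right). Blue circles are pre-KD and red triangles post-KD groups, the dashed line is the variation that counting alone would give, and every point lies above it.

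The first comparison asked which of these transcripts differed in the hippocampus of post-KD recipients from those of pre-KD recipients. All 30 members were tested with edgeR's quasi-likelihood test among 17529 genes, and 0 passed an adjusted p of 0.05 (Benjamini-Hochberg, over all genes), where 0.0057% of all genes did. At an unadjusted p of 0.05 there were 2 members, *Idi1* and *Cyp51*, both lower post-KD, beside 10.1% of all genes tested. Of genes averaging at least 20 counts, which leave out *Idi1*, 2.53% reached it, and 2 of 30 lies between these shares. *Idi1* passed the filter of 10 summed counts only through its 12 pre-KD counts, so its direction is no support for a difference. DESeq2 gave 0 members after adjustment and 1 before it. In the same comparison the 6 striatal markers tested were all negative (median log2 fold change -0.55, 1 at an unadjusted p under 0.05), with sums of 105 to 287 CPM pre-KD and 49.3 to 207 CPM post-KD, and of 8 hippocampal markers 2 were higher and 1 lower at an unadjusted p under 0.05, with sums of 173 to 361 and 178 to 441 CPM; none passed after adjustment, and their part in the members' differences was not tested. The members' median log2 fold change was -0.04, with 14 positive and 16 negative, beside -0.01 over all genes.

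*Cyp51* encodes lanosterol 14α-demethylase, the first step after ring closure, and lies at chr5:4081145-4104746 (mm10). Its level was 27.2 CPM in the lowest, 52.1 CPM at the median and 124 CPM in the highest of 10 pre-KD hippocampal libraries. In the post-KD libraries these values were 10.5, 33.6 and 55.5 CPM. The groups overlapped: 4 post-KD libraries lay below every pre-KD one and 4 pre-KD libraries above every post-KD one, and by donor the post-KD level was lower in 6 of 10. The means were 57.4 ± 29.1 and 32.2 ± 15.3 CPM (SD, n = 10 each). The log2 fold change was -0.84 ± 0.35 (SE; 95% interval -1.53 to -0.14), with an unadjusted p of 0.0182 and an adjusted p of 0.252 in edgeR. Leaving out donor 5 raised the unadjusted p to 0.125, while the log2 fold change lay between -0.99 and -0.56 over all fits without 1 donor, and in the frontal cortex *Cyp51* gave 0.07 ± 0.28 with means of 40.1 and 42.4 CPM.

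*Idi1* lies at chr13:8885501-8892451 (mm10). It had 12 counts in 4 of 10 pre-KD hippocampal libraries, 7 of them in the recipients of donor 3, and 0 counts in all 10 post-KD libraries. A total of 0 allows a limit of 3 counts for the post-KD group. Scaled for depth, this limit lay 3.61-fold below the pre-KD counts, or 1.71-fold without the donor 3 library, which leaves 5 pre-KD counts. These ratios take the pre-KD counts as exact, so neither is a lower limit on the difference. The fitted log2 fold change of -3.29 (unadjusted p = 0.00379, adjusted p = 0.0776 in edgeR) depends on the prior count and is no bound either. The unadjusted p was 0.345 in DESeq2 and 0.158 with the donor as a block, and without donor 3 the gene fell below the minimum of 10 counts. In the frontal cortex it had 8 counts in 2 pre-KD and 17 counts in 5 post-KD libraries. Of the 69-base stretches of its exons, 24.0% recur in other annotated genes, where reads may not have been assigned. The share was as high or higher in members with more counts, at 24.0% in *Fdps*, 27.6% in *Acaca* and 35.2% in *Acat2*.

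Among the other mevalonate genes, *Pmvk* was at -0.88 (95% interval -1.91 to 0.16) and *Hmgcs1* at 0.13 (-0.18 to 0.44). *Acat2*, the cytosolic acetyl-CoA acetyltransferase, *Mvk*, the mevalonate kinase, *Mvd*, the decarboxylase, and *Fdps*, which makes farnesyl diphosphate, lay between -0.38 and -0.32 with standard errors of 0.49 to 0.83. In the sterol arm, *Lss*, the lanosterol synthase, was at -0.99 (-2.37 to 0.40), *Msmo1* at 0.07 (-0.40 to 0.53) and *Fdft1*, the squalene synthase, at -0.05 (-0.84 to 0.75). *Tm7sf2*, *Nsdhl* and *Ebp*, which reduce, decarboxylate and isomerize the ring, were at 0.68, 0.59 and 0.42, with standard errors of 1.08, 0.76 and 0.74. *Sqle*, *Hsd17b7*, *Sc5d* and *Dhcr7* of the same arm lay between -0.24 and 0.06. None of these intervals excluded 0.

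The regulators were close to no difference in point estimate: *Srebf2* 0.12 (-0.60 to 0.84), *Scap* 0.01 (-0.75 to 0.76), *Insig1* -0.14 (-1.14 to 0.86), *Insig2* 0.15 (-1.09 to 1.39) and *Srebf1* -0.09 (-1.92 to 1.74). *Stard4*, a sterol transfer protein of the cytosol, was at 0.67 (-0.51 to 1.84), and with the donor as a block at 1.49 with an unadjusted p of 0.0367 and did not pass after adjustment. *Cyp46a1* was at 0.02 (-0.44 to 0.48). Of fatty acid synthesis, *Acaca*, the acetyl-CoA carboxylase that makes malonyl-CoA, was at 0.37 (-0.39 to 1.14), *Fasn* at -0.03 (-0.50 to 0.45), *Scd1* at -0.16 (-0.75 to 0.44), *Scd2* at 0.02 (-0.27 to 0.31) and *Lpin1*, a phosphatidate phosphatase, at 0.21 (-0.80 to 1.22). Intervals for 9 of the 30 genes lay wholly within a doubling or halving: *Cyp46a1*, *Fasn*, *Fdft1*, *Hmgcs1*, *Msmo1*, *Scap*, *Scd1*, *Scd2* and *Srebf2*. For the other 21 a difference of that size was not excluded at this depth and spread.

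**Figure D2:**
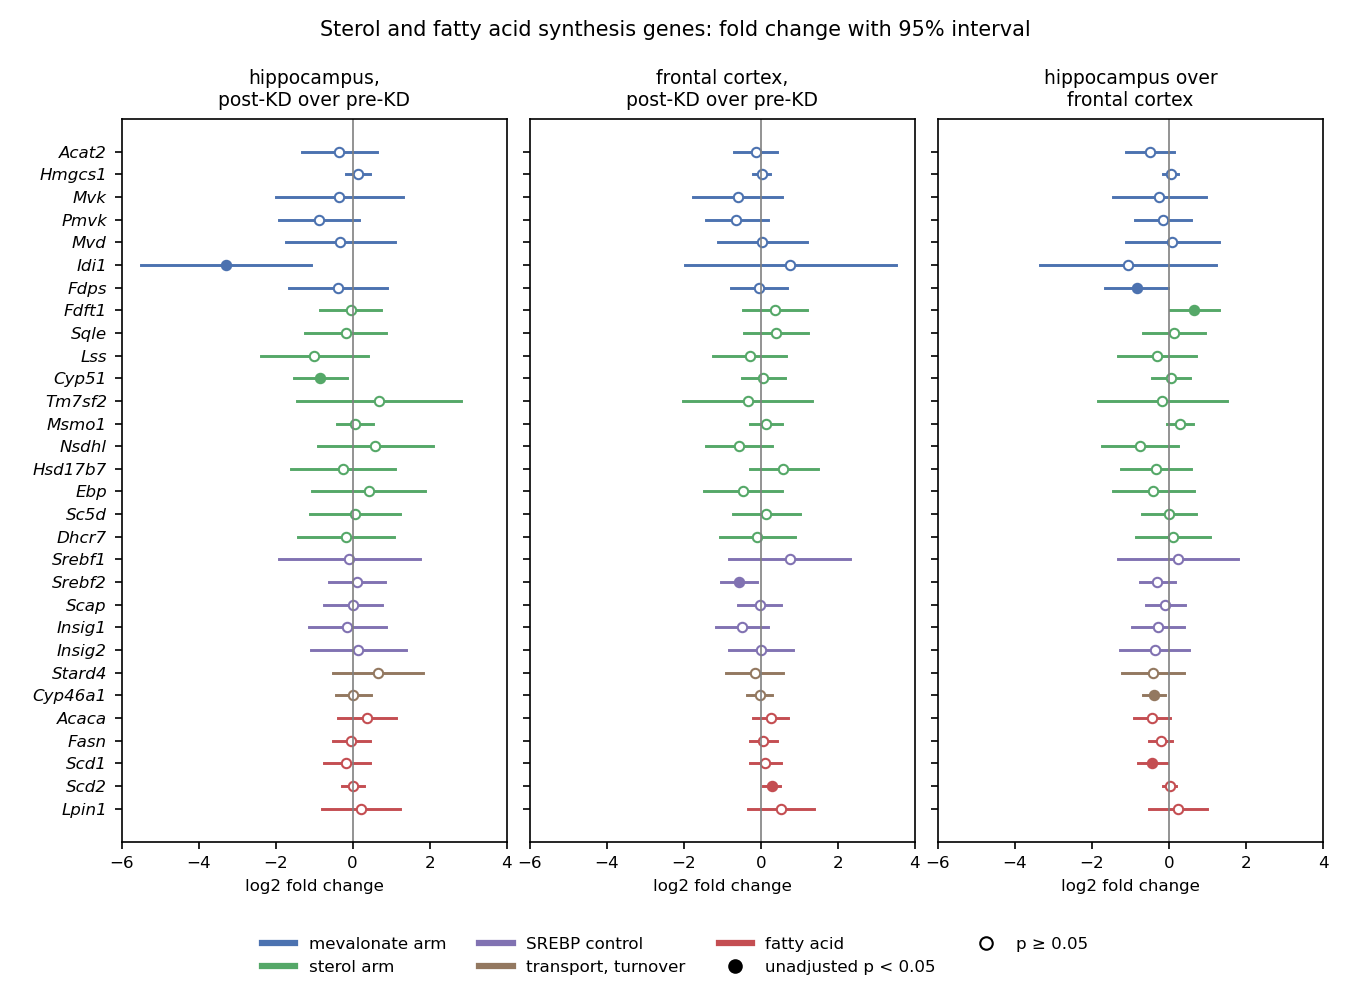
Log2 fold change (point) of each of the 30 members in edgeR, with an approximate 95% interval (line) built from the fold change and F statistic. Panels give post-KD over pre-KD in hippocampus (left) and frontal cortex (middle) and hippocampus over frontal cortex (right), colored by role. Filled points have an unadjusted p under 0.05: *Idi1* and *Cyp51* on the left, *Srebf2* and *Scd2* in the middle, and *Fdps*, *Fdft1*, *Cyp46a1* and *Scd1* on the right; none passed after adjustment.

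The same question in the frontal cortex gave a similar count with other genes. Again 0 of 30 members passed an adjusted p of 0.05, beside 0.0056% of 17873 genes tested, and 2 members, *Scd2* and *Srebf2*, had an unadjusted p under 0.05, beside 9.68% of all genes tested and 4.63% of those averaging at least 20 counts. DESeq2 gave 0 and 2. The median log2 fold change of the members was 0.01, with 16 positive and 14 negative, beside 0.01 over all genes. Across the regions 14 of 30 members had the same sign, beside 51.0% of 16355 genes tested in both.

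*Scd2* lies at chr19:44293674-44306864 (mm10). In pre-KD frontal cortex it ran from 265 CPM through a median of 304 CPM to 424 CPM. In post-KD frontal cortex it ran from 331 through 388 to 476 CPM. All 10 post-KD libraries lay above the pre-KD median and 6 pre-KD libraries lay below every post-KD one, although the ranges overlapped, and 9 of 10 donors had the higher level post-KD. The means were 322 ± 51.5 and 394 ± 46.2 CPM (SD, n = 10 each). The log2 fold change was 0.29 ± 0.11 (95% interval 0.07 to 0.51), a fold between 1.05 and 1.42, with an unadjusted p of 0.00915 and an adjusted p of 0.168 in edgeR. The unadjusted p stayed between 0.00548 and 0.0354 without any single donor, and was 0.0270 without donors 9 and 10. Sums of the 12 oligodendrocyte markers, cells in which this desaturase is high, were 2246 to 4032 CPM pre-KD and 2175 to 3502 CPM post-KD in the same libraries, and 0 of the 12 had an unadjusted p under 0.05 there. Of 4 blood markers, *Hba-a2* was at 0 and 2 of the other 3 were higher post-KD at an unadjusted p under 0.05 (0 after adjustment, lowest adjusted p = 0.122 in edgeR), with sums of 387 to 1143 CPM pre-KD and 546 to 1374 CPM post-KD; at the same threshold, and with 0 after adjustment, 1 of 6 microglial markers was lower, 1 of 6 striatal markers higher and 1 of 7 hippocampal markers lower post-KD. The part of these in the differences of *Scd2* and *Srebf2* was not tested.

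*Srebf2* lies at chr15:82147181-82205379 (mm10). Its level in pre-KD frontal cortex had a lowest value of 28.9, a median of 57.4 and a highest value of 94.4 CPM. In post-KD frontal cortex these were 17.1, 38.8 and 64.0 CPM. The groups overlapped, with 4 pre-KD libraries above every post-KD one and 2 post-KD libraries below every pre-KD one, and 8 of 10 donors had the lower level post-KD. The means were 63.2 ± 21.03 and 42.9 ± 16.5 CPM (SD, n = 10 each). The log2 fold change was -0.57 ± 0.24 (95% interval -1.04 to -0.09; unadjusted p = 0.0208, adjusted p = 0.310 in edgeR). The unadjusted p went above 0.05, to at most 0.0683, when donor 3 or donor 8 was left out, while the log2 fold change lay between -0.72 and -0.48 over all fits without 1 donor.

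**Figure D3:**
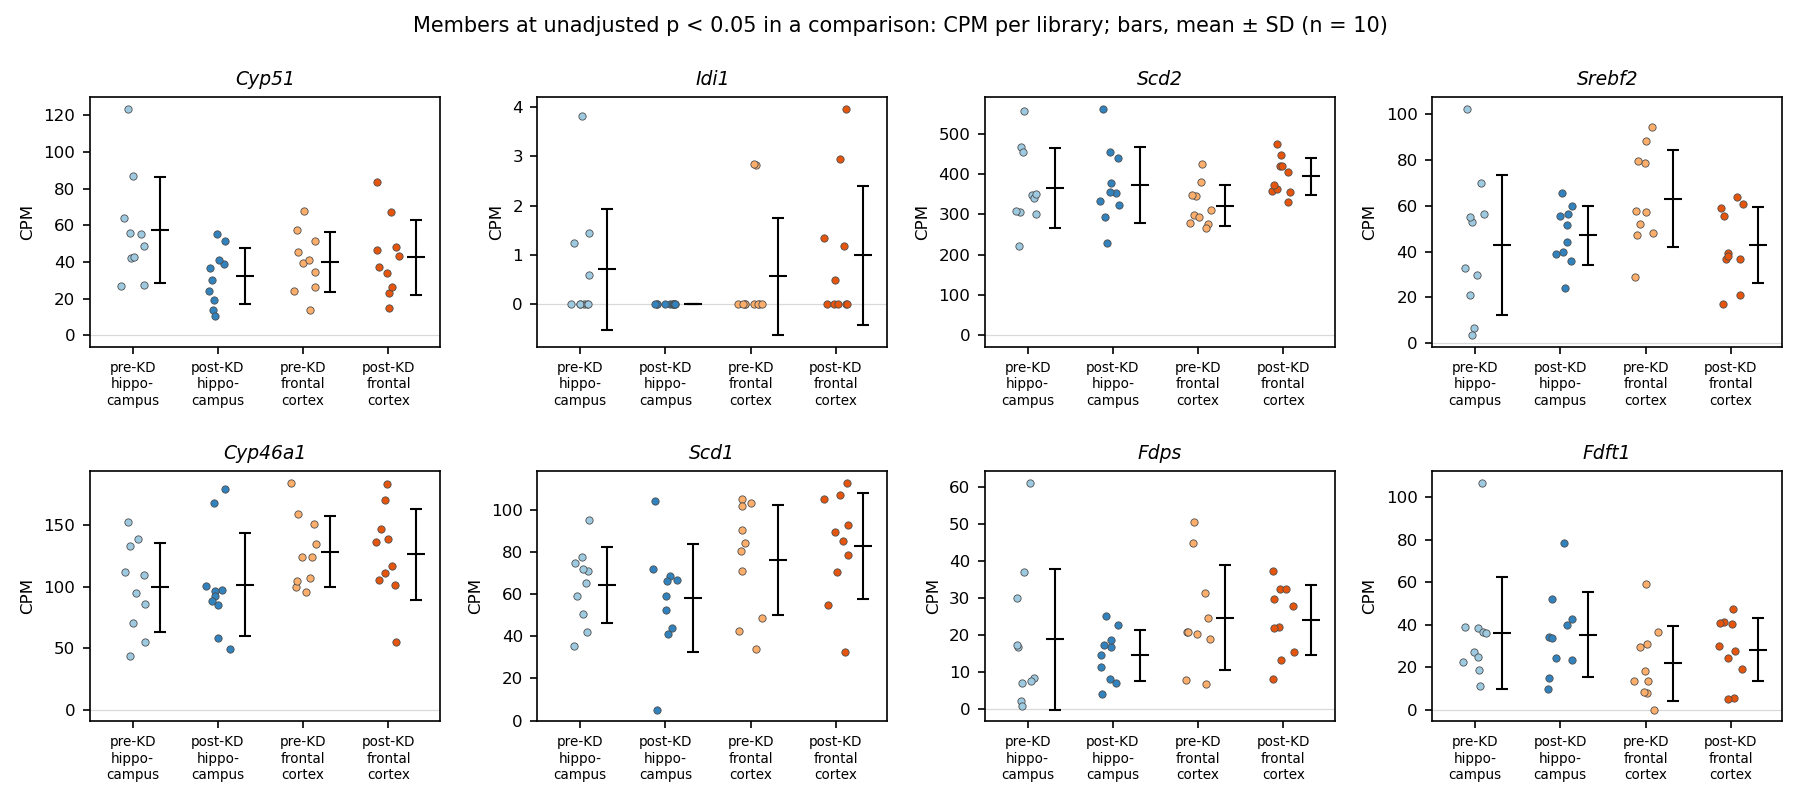
CPM of the 8 members with an unadjusted p under 0.05 in a comparison, by group; each point is 1 library pooled from 6 mice, and bars give the mean ± SD of 10. Linear axes differ between genes; *Cyp51* and *Idi1* are lower on average in post-KD than in pre-KD hippocampus, *Scd2* is higher and *Srebf2* lower in post-KD than in pre-KD frontal cortex, and the ranges of these groups overlap.

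The remaining fatty acid genes in the frontal cortex were all positive without reaching an unadjusted p of 0.05: *Acaca* at 0.26 (-0.19 to 0.71), *Fasn* at 0.07 (-0.27 to 0.41), *Scd1* at 0.12 (-0.29 to 0.53) and *Lpin1* at 0.52 (-0.34 to 1.38). The signs of 3 of them turned when 1 donor was left out, with lowest values of -0.01 for *Lpin1* (without donor 6), -0.10 for *Fasn* and -0.01 for *Scd1*, and *Scd1* was at -0.02 without donors 9 and 10. As a description of all 5, their summed level was 567.5 ± 51.9 CPM in pre-KD libraries against 669 ± 39.6 CPM in post-KD libraries (SD, n = 10 each), higher post-KD in 9 of 10 donors, and without *Scd2* it was 246 ± 44.5 and 275 ± 42.6 CPM, higher in 7 of 10. In the hippocampus the sum of 5 was 588 ± 116 and 603 ± 87.3 CPM. The 18 mevalonate and sterol genes together gave 627 ± 74.5 and 624 ± 58.0 CPM in the frontal cortex and 670 ± 72.2 and 639 ± 106 CPM in the hippocampus, differences smaller than the spread between libraries. Without *Hmgcs1* the other 17 summed to 420.2 ± 57.3 pre-KD and 363 ± 83.3 CPM post-KD in the hippocampus, higher post-KD in 4 of 10 donors, and to 377 ± 60.2 and 370.2 ± 51.3 CPM in the frontal cortex, with overlapping ranges in both. The 5 control genes summed to 162 ± 18.4 pre-KD and 134 ± 28.5 CPM post-KD in the frontal cortex, with 1 of 10 donors higher post-KD. Without *Srebf2*, which was named for its difference, the other 4 summed to 98.5 ± 21.1 and 91.2 ± 24.9 CPM, higher post-KD in 5 of 10 donors.

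**Figure D4:**
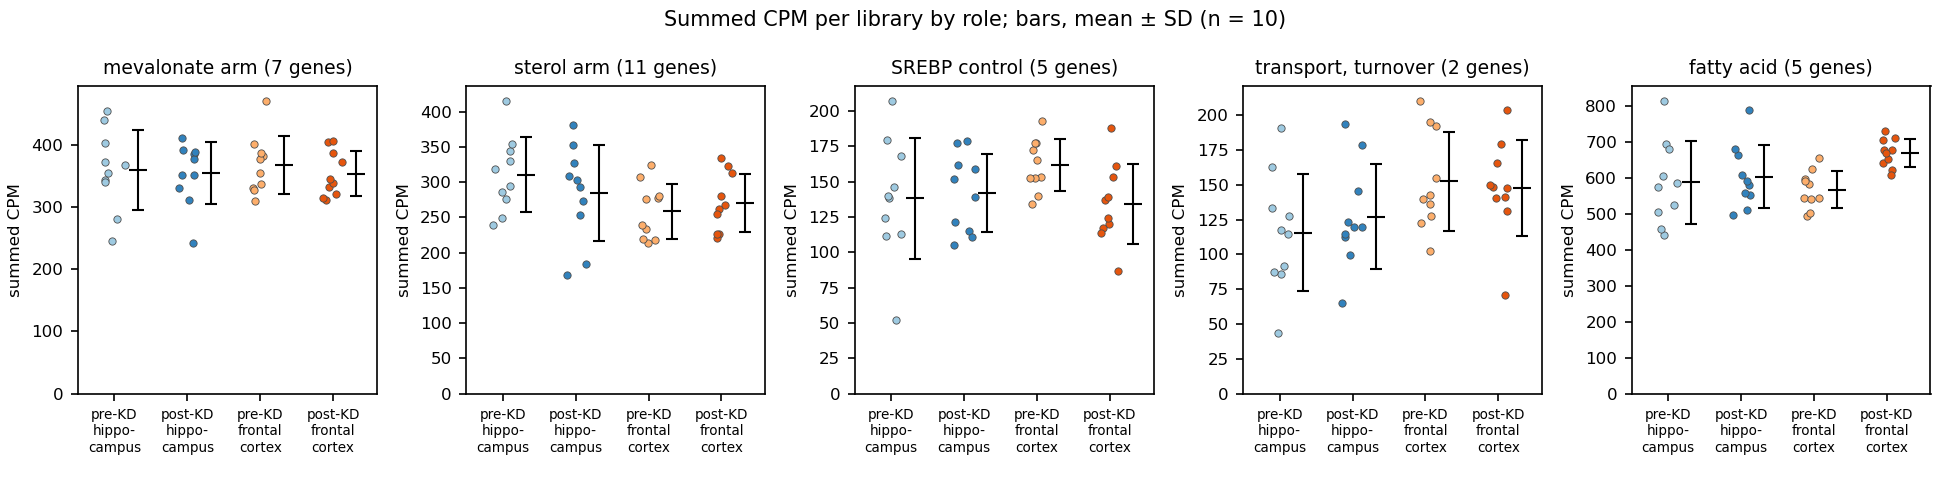
Summed CPM of the members of each role in each library, by group, with the mean ± SD of 10 libraries beside the points; axes start at 0. The fatty acid genes sum to 608 to 731 CPM in post-KD and 494 to 655 CPM in pre-KD frontal cortex, and the sums of the mevalonate and sterol arms overlap widely between pre-KD and post-KD.

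Within the sterol pathway of the frontal cortex, *Hmgcs1* was at 0.02 (-0.21 to 0.25), the narrowest interval of both arms, with means of 249.7 and 254 CPM, and *Msmo1* at 0.13 (-0.28 to 0.54). *Pmvk* was at -0.63 (-1.43 to 0.18), *Mvk* at -0.60 (-1.77 to 0.56), *Nsdhl* at -0.57 (-1.42 to 0.28), *Hsd17b7*, a 3-keto reductase of the ring, at 0.59 (-0.29 to 1.48) and *Sqle* at 0.40 (-0.43 to 1.22). The other enzymes of both arms, *Idi1* aside, lay between -0.46 and 0.37. Of the regulators, *Insig1* was at -0.49 (-1.17 to 0.20), with 8 of 10 donors lower post-KD, and *Insig2*, *Scap* and *Srebf1* at 0.01, -0.03 and 0.75. *Stard4* was at -0.16 (-0.90 to 0.59) and *Cyp46a1* at -0.03 (-0.35 to 0.29). In this region 13 of 30 intervals lay within a doubling or halving.

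Whether the change post-KD differed between the regions was tested in 1 model of all 40 libraries that fitted the 20 cohorts as a block. No member passed after adjustment (0 of 30 in edgeR, beside 0.0154% of 19422 genes), and 1, *Srebf2*, had an unadjusted p under 0.05, beside 2.22% of all genes. For *Srebf2* the difference, hippocampal minus frontal cortical change, was 1.05 ± 0.47 on the log2 scale (0.13 to 1.97; unadjusted p = 0.0260), and 0.69 with an unadjusted p of 0.122 without the cohort terms. *Stard4* was at 1.56 (-0.06 to 3.17), and at 2.01 with an unadjusted p of 0.0270 without donors 9 and 10. *Cyp51* was at -0.86 (-1.85 to 0.13) and *Scd2* at -0.27 (-0.62 to 0.08). Without the cohort terms *Cyp51* was at -0.91 (unadjusted p = 0.0449, adjusted p = 0.524) and *Idi1*, with its few counts, at -4.10 (unadjusted p = 0.00760, adjusted p = 0.187). None of these passed after adjustment, so the differences of *Cyp51* and *Scd2* between pre-KD and post-KD were not shown to be particular to either region.

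Between regions, 0 of 30 members passed an adjusted p of 0.05 in edgeR, where 2.85% of 19422 genes did, and 4 had an unadjusted p under 0.05, beside 10.9% of all genes and 17.3% of those averaging at least 20 counts. DESeq2 gave 0 and 6, adding *Msmo1* at 0.33 (unadjusted p = 0.0181) and *Nsdhl* at -0.71 (unadjusted p = 0.0449), which were at 0.29 and -0.76 with unadjusted p of 0.0884 and 0.136 in edgeR. The median difference, hippocampus minus frontal cortex, was -0.23 for the members and -0.17 for all genes tested, and -0.08 for the 8157 genes averaging at least 20 counts, as 26 of the members did. *Cyp46a1*, at chr12:108334381-108362234 (mm10), averaged 101 ± 38.2 CPM in the hippocampus and 128 ± 32.4 CPM in the frontal cortex (SD, n = 20 each), lower in the hippocampus in 16 of 20 cohorts. It ran from 43.4 through 102 to 153 CPM in pre-KD and from 49.2 through 94.7 to 180.0 CPM in post-KD hippocampus, and from 96.0 through 124 to 185 CPM and from 54.8 through 126 to 183 CPM in the frontal cortex, so the ranges overlapped widely. The log2 difference was -0.40 ± 0.15 (-0.68 to -0.11; unadjusted p = 0.00616, adjusted p = 0.147 in edgeR), with an adjusted p of 0.0151 when donor 1 was left out and of 0.457 without donors 9 and 10.

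*Scd1*, at chr19:44394455-44407879 (mm10), averaged 61.2 ± 21.8 CPM in the hippocampus and 79.5 ± 25.2 CPM in the frontal cortex, lower in the hippocampus in 16 of 20 cohorts, with a log2 difference of -0.43 ± 0.19 (unadjusted p = 0.0239, adjusted p = 0.337 in edgeR). *Fdps* was at -0.84 ± 0.42 (unadjusted p = 0.0449) and *Fdft1* at 0.66 ± 0.33 (unadjusted p = 0.0446), with adjusted p of 0.437 and 0.436 in edgeR and unadjusted p above 0.05 in 7 and 6 of the 10 fits that left out a donor. Without donors 9 and 10 the unadjusted p was 0.0948 for *Scd1* and 0.147 for *Fdps*, and that of *Scd1* was also above 0.05, at most 0.0804, without donor 4, 8 or 10. *Acaca* was at -0.45 (-0.91 to 0.02; unadjusted p = 0.0623) in all libraries and at -0.65 (unadjusted p = 0.0195, adjusted p = 0.318) without donors 9 and 10. Both also share exonic sequence with an overlapping gene, 26.7% of the exonic bases of *Fdps* with *Gm43738* on the same strand and 18.3% of those of *Fdft1* with *Ctsb* on the other. *Hmgcs1* and *Scd2*, the most abundant members, differed by 0.04 (-0.16 to 0.24) and 0.02 (-0.16 to 0.19). The 7 choroid plexus markers summed to 509 to 4417 CPM in hippocampal and 7.32 to 607 CPM in frontal cortical libraries, and 3 of 7 neuronal markers were lower in the hippocampus at an adjusted p of 0.05. At an unadjusted p of 0.05, with 0 after adjustment in edgeR, 3 of 12 oligodendrocyte markers were lower and 1 higher (median log2 difference -0.25), 3 of 5 endothelial markers lower (median -0.49), 2 of 3 blood markers lower (median -0.20), 1 of 6 microglial markers lower and 1 of 7 astrocyte markers higher. The part of these cell types in the members' differences was not tested.

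Of 38 other lipid genes, among them further sterol enzymes, sterol receptors and transporters, elongases and desaturases, 37 were tested in each fit and 0 passed after adjustment in any. In the hippocampus 1 of 37 had an unadjusted p under 0.05, where 10.1% of all genes and 2.53% of those averaging at least 20 counts did. This was *Nr1h2*, which encodes the oxysterol receptor LXRβ, at 1.24 ± 0.50 (means 15.3 pre-KD and 36.6 CPM post-KD; adjusted p = 0.207 in edgeR). Next by p came *Elovl6*, an elongase of saturated fatty acids, at -0.69 (p = 0.0744). In the frontal cortex 3 of 37 had an unadjusted p under 0.05, against the 9.68% of all genes tested and 4.63% of those averaging at least 20 counts given above. *Elovl5*, an elongase of polyunsaturated fatty acids, was at -0.80 ± 0.27 (means 60.5 and 34.8 CPM, lower in 9 of 10 donors; adjusted p = 0.122), *Fads1*, the delta-5 desaturase, at 0.40 ± 0.18 (adjusted p = 0.408) and *Acly*, the ATP citrate lyase that supplies cytosolic acetyl-CoA, at 0.41 ± 0.20 (adjusted p = 0.5002). Between regions *Acly* was at -0.42 (p = 0.0382) and *Hacd3*, a dehydratase of fatty acid elongation, at -0.21 (p = 0.116). In the difference between regions of the change post-KD, *Elovl1*, another elongase, was at -2.46 (p = 0.0703) and *Fads1* at -0.54 (p = 0.0988).

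Finally, because SREBP targets can be switched on together, the members' levels were set against each other over the 20 libraries of a region after the mean of each condition had been removed. Among 27 members with at least 10 CPM the median pairwise Pearson r was 0.033 among hippocampal and 0.008 among frontal cortical libraries, beside 0.013 and 0.003 over all genes of at least that level, and among 16 mevalonate and sterol genes 0.039 and 0.040. In the hippocampus 4.27% of the members' pairs had r above 0.5, beside 3.58% over all genes, and 6.67% (8 of 120) of the pairs of mevalonate and sterol genes did. In the frontal cortex these shares were 1.99%, 2.78% and 2.5% (3 of 120). Pairs with r below -0.5 made up 0% of the members' pairs and 1.72% of all pairs in the hippocampus, and 1.99% and 1.73% in the frontal cortex. The highest pairs in the hippocampus were *Hmgcs1* with *Sqle* at 0.75 and *Sqle* with *Dhcr7* at 0.72, and in the frontal cortex *Ebp* with *Dhcr7* at 0.67. These values are descriptions over 20 libraries that share depth and normalization.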

How the data were processed

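Hippocampal and frontal cortical RNA-seq libraries (40 in all, 20 per region) were analyzed. The authors deposited 1 table of unnormalized read counts per region, with 47643 Ensembl genes in each; per the methods, paired reads of 69 bases were aligned to mm10 with STAR 2.5.2a and counted with HTSeq 0.6.0, and the submitters' notes also list FastQC 0.11.5 and SAMtools 1.3. The kit is given as TruSeq in the labels, while a 3' kit is listed among the study's reagents. The strand setting of the counting was not given in the sources used here. Symbols and positions were taken from GENCODE M21 for 47224 identifiers, 419 having none, and promoters from RefSeq. The filter kept genes whose counts in a comparison reached 10 in all, and the test was the quasi-likelihood F test of edgeR 4.0.16 with TMM factors (R 4.3.3, limma 3.58.1), adjusted by Benjamini-Hochberg over all genes of the fit. Post-KD was compared with pre-KD within each region without a block; regions, and the difference between them in the change post-KD, were compared with a term for each of 20 cohorts. The test gives no standard error, so it was taken as the absolute log2 fold change over the square root of F. Intervals at 95% were built from it and are approximate. For *Idi1* in the hippocampus, with 0 counts post-KD, the interval sets no limit. No identical libraries were found. CPM were computed from the counts with TMM factors over 40 libraries.

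Totals of 1140756 to 2095352 counts per library limit precision: 4 of 30 members average fewer than 20 counts, and floors cover counting error only. Adjusted and unadjusted p-values set a difference between groups against the spread between these pools. In the fits with cohort terms that spread is what remains after the cohorts are fitted. Each donor gave both stools, so the donor pairs the cohorts by design. On genes averaging at least 20 counts, the deviations of a donor's pre-KD and post-KD libraries from their group means correlated at -0.0278 to 0.031 (hippocampus) and -0.0551 to 0.0311 (frontal cortex), with 0 of 10 pairs above 0.1 in either; hippocampus and frontal cortex of a cohort gave -0.0246 to 0.199. With the donor as a replicate block, genes at an unadjusted p under 0.05 went from 1762 to 348 in the hippocampus and from 1731 to 548 in the frontal cortex, and the members stayed at 2 in both, in the hippocampus with *Stard4* in place of *Idi1* beside *Cyp51*.

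All 30 members were named. Library values were given for members at an unadjusted p under 0.05 in either comparison of post-KD with pre-KD, and would have been for up to 4 at an adjusted p under 0.05 between regions; of other lipid genes the 3 with the smallest p per comparison were named, except for some that are not reported here. None passed between regions, so the values of *Cyp46a1*, *Scd1*, *Fdps* and *Fdft1* given there were chosen after they were seen. The members and lists were chosen with earlier results of these data known. Alternatives were DESeq2 1.42.0, RLE size factors, no filter, filterByExpr, the other block setting, leaving out the most abundant gene, and each donor in turn. Leaving out donors 9 and 10, the ratio of *Idi1* without its highest library and the control sum without *Srebf2* were chosen after seeing the data. The tests were also run on simulated data, where genes simulated without a change had an unadjusted p under 0.05 more often than that threshold allows in the comparisons within a region, and some of them passed adjustment; unadjusted p-values are therefore given beside the share of all genes. Summaries and plots used Python 3.11.15, pandas 2.3.3, numpy 2.4.6, scipy 1.17.1 and matplotlib 3.10.9.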

Additional observations from a re-analysis of the deposited data

Results flagged for a closer look

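In 11 of 119 sets of 10 libraries, 1 library stood apart from the rest by a gap that chance gives in about 1 in 20 sets (Dixon's criterion at 95%). *Acat2* reached 69.2 CPM in post-KD hippocampus of donor 3, where the next library had 29.6 CPM, and 61.3 CPM in pre-KD frontal cortex of donor 9, with the next at 40.3 CPM. *Idi1* had 3.81 CPM, from 7 counts, in pre-KD hippocampus of donor 3. *Fdft1* reached 107 CPM (160 counts) in pre-KD hippocampus of donor 7, and the next library had 38.7 CPM. *Tm7sf2* was highest in donor 7 in post-KD tissue of both regions, at 24.8 CPM in the hippocampus and 16.5 CPM in the frontal cortex, from 41 and 28 counts. Donor 1 recipients had the highest *Hsd17b7* in post-KD frontal cortex (65.8 CPM, next 26.4), the highest *Scap* in pre-KD frontal cortex (92.1 CPM, next 55.3) and the highest *Insig1* in post-KD hippocampus (65.3 CPM, next 33.0). Donor 6 recipients had the highest *Insig1*, at 59.4 CPM, and *Lpin1*, at 82.7 CPM, in post-KD frontal cortex, where the next libraries had 27.98 and 28.7 CPM. Without donor 6, the log2 fold change of *Lpin1* in the frontal cortex was -0.01 in place of 0.52.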

How the results depend on the processing

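No member with an unadjusted p under 0.05 changed direction under the alternatives run (the difference between regions was not refitted without single donors, in DESeq2, without a filter or without the most abundant gene), and of 742 member results under settings other than leaving out 1 donor, 695 kept direction and side of the adjusted threshold. Depth and the spread between pools limit what could be seen: 21 of 30 hippocampal and 17 of 30 frontal cortical intervals reached beyond a doubling or halving. Where a result below differed, the cause was not tested. With filterByExpr, which left out *Idi1*, and with DESeq2, 1 hippocampal member had an unadjusted p under 0.05 in place of 2; with no filter 1 passed after adjustment, *Idi1* (adjusted p = 0.0449). Over all hippocampal genes, those at an unadjusted p under 0.05 numbered 221 with filterByExpr, 348 with the donor as replicate block, 2931 with no filter and 599 in DESeq2, in place of 1762, and those past adjustment 0, 0, 1291 and 0 in place of 1. In the frontal cortex these were 407, 548, 3035 and 825 in place of 1731, with 3 past adjustment under the block and 2 in DESeq2 in place of 1. Between regions, omitting the cohort as a replicate block gave 2 members in place of 4, 3474 genes unadjusted and 1935 adjusted in place of 2117 and 554, and DESeq2 gave 1033 adjusted. For the difference between regions it gave 2 members, *Cyp51* and *Idi1*, in place of *Srebf2*, 1767 genes and 348 adjusted in place of 431 and 3; filterByExpr left 0 adjusted, and without donors 9 and 10 there were 2 members, *Srebf2* and *Stard4*. Leaving out 1 donor gave 1 to 2 members in the hippocampus (1 without donor 3 or 5) with 0 to 1 genes past adjustment (0 without donor 4 or 9), 1 to 3 members in the frontal cortex (1 without donor 3 or 8) and 2 to 4 between regions (2 without donor 1, 7 or 8), where *Cyp46a1* passed adjustment only without donor 1 (0 to 1 members).

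Signs of log2 fold changes that had not reached an unadjusted p of 0.05 turned as follows. With the donor as replicate block the hippocampal values were *Fdps* 0.15, *Fdft1* 0.01, *Sqle* 0.23, *Sc5d* -0.12, *Srebf1* 0.04, *Insig2* -0.09, *Acaca* -0.04 and *Fasn* 0.05, and the frontal cortical ones *Mvd* -0.25, *Fdps* 0.05, *Dhcr7* 0.00, *Scap* 0.04 and *Insig2* -0.05. Without the cohort as replicate block, *Tm7sf2* 0.04, *Sc5d* 0.36 and *Scap* 0.02 turned between regions, and *Mvk* 0.25, *Fdps* -0.34, *Insig2* 0.15 and *Acaca* 0.12 in the difference between regions; *Sc5d* between regions was 0.02 with RLE size factors and 0.01 in DESeq2. Without donors 9 and 10 the values were *Sqle* 0.19, *Hsd17b7* 0.26, *Dhcr7* 0.15, *Srebf1* 0.29, *Insig1* 0.06 and *Fasn* 0.03 in the hippocampus, *Acat2* 0.09, *Idi1* -0.20, *Fdps* 0.13, *Cyp51* -0.04, *Dhcr7* 0.03, *Scap* 0.00 and *Scd1* -0.02 in the frontal cortex, *Hmgcs1* -0.01, *Mvd* -0.18, *Sqle* -0.13, *Tm7sf2* 0.17, *Dhcr7* -0.09, *Srebf1* -0.07 and *Scd2* -0.02 between regions, and *Fdps* -0.30, *Sqle* 0.21, *Dhcr7* 0.13 and *Fasn* 0.08 in the difference between regions. Over fits without 1 donor, ranges that crossed 0 were, in the hippocampus, *Mvd* -0.84 to 0.01, *Fdft1* -0.32 to 0.37, *Sqle* -0.37 to 0.07, *Hsd17b7* -0.57 to 0.02, *Sc5d* -0.37 to 0.38, *Dhcr7* -0.41 to 0.03, *Srebf1* -0.28 to 0.10, *Srebf2* -0.04 to 0.41, *Scap* -0.20 to 0.25, *Insig1* -0.39 to 0.04, *Insig2* -0.19 to 0.54, *Cyp46a1* -0.10 to 0.18, *Acaca* -0.09 to 0.59, *Fasn* -0.10 to 0.07, *Scd1* -0.25 to 0.02 and *Scd2* -0.06 to 0.11. In the frontal cortex they were *Hmgcs1* -0.02 to 0.06, *Mvd* -0.15 to 0.29, *Fdps* -0.17 to 0.12, *Tm7sf2* -0.88 to 0.09, *Sc5d* -0.06 to 0.34, *Dhcr7* -0.29 to 0.15, *Scap* -0.17 to 0.25, *Insig2* -0.20 to 0.19, *Cyp46a1* -0.12 to 0.03, *Fasn* -0.10 to 0.16, *Scd1* -0.01 to 0.22 and *Lpin1* -0.01 to 0.78. Between regions they were *Pmvk* -0.38 to 0.04, *Mvd* -0.28 to 0.34, *Sqle* -0.05 to 0.39, *Cyp51* -0.12 to 0.16, *Tm7sf2* -0.53 to 0.22, *Sc5d* -0.26 to 0.31, *Dhcr7* -0.13 to 0.36, *Srebf1* -0.14 to 0.48, *Scap* -0.18 to 0.07 and *Scd2* -0.02 to 0.06.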
